A study of Rattus norvegicus with 19 samples.

Results

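Empagliflozin (EMPA) hearts and control hearts of week 9 are compared here, by RNA-seq of rat left ventricles, which the labels call heart. The libraries were chosen by their labels, every library marked as control at 9 weeks and every library marked as HFpEF treated with EMPA, which gives 3 control and 2 EMPA libraries, 5 of the 19 in the series. The comparison asks which differences from control hearts remain in a model of heart failure with preserved ejection fraction (HFpEF) under EMPA alone. All 19 samples carry the labels Sprague-Dawley, Wildtype and Male, and the rats were 24 weeks old when the study began. The treatment groups as a whole held males and females, and the hearts sequenced are labelled male. Control rats received no L-NAME and ate normal chow. EMPA rats received L-NAME, a blocker of nitric oxide synthesis, at 0.5 g/L in drinking water, with a high-fat diet that held 60% of its energy as fat, for 5 weeks, and then EMPA at 0.35 g/kg per day in phosphate-buffered saline (PBS) by gavage for 4 weeks. For side values, 3 untreated libraries of week 9 (L-NAME, high-fat diet and PBS), 3 HFpEF libraries of week 5 and 3 control libraries of week 5 are given. The files hold no library for a further EMPA sample, which the study left out because its file was corrupted. The protocol gives 5 weeks of L-NAME and diet, while induction is also described as lasting to week 9. L-NAME, diet and EMPA differ between the 2 groups and the vehicle may differ too, so their effects cannot be told apart. Replicates are labelled as biological, and they have no order.

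Total counts were 8141045, 7803050 and 9409670 in the control libraries of week 9 and 7430539 and 8061054 in the EMPA libraries. At these depths 3 counts, used here as the floor for a gene at 0, equal 0.338, 0.369 and 0.299 CPM in the controls and 0.400 and 0.364 CPM under EMPA, and floors and intervals cover counting error only. CPM is a count scaled to the library total, here with TMM factors, and differences are log2 fold changes of EMPA minus control with their standard errors. A gene counts as changed when edgeR's quasi-likelihood test gives an adjusted p under 0.05 (Benjamini-Hochberg) and its level differs at least 2-fold. The smallest p that a 2-sided exact rank test of 2 against 3 libraries could give is 0.2, so single values have no test other than the fit over 12388 genes.

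EMPA blocks SGLT2, the glucose and sodium carrier of the kidney, and hearts under such drugs are known to meet more fat and ketone bodies as fuel. Heart muscle burns mainly fatty acids, draws its rhythm from ion channels and its daily timing from a transcriptional clock in which BMAL1 and CLOCK drive their own repressors. The RT1 genes of the rat are its major histocompatibility complex, a family of near-identical genes that differ in number and sequence between animals.

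Several measures set libraries apart, and they come before the results. The Y-linked gene Eif2s3y had counts of 654, 613 and 741 in the controls and 676 and 789 under EMPA, so all 5 libraries carry Y-linked RNA, as their labels say. The untreated libraries had 0, 0 and 0 counts of it and the HFpEF libraries of week 5 had 0, 855 and 0, against the label Male in 5 of these 6. The 6 sex-linked genes tested summed to 2239, 3154 and 2481 CPM in untreated and 3004, 917 and 2491 CPM in HFpEF libraries. They summed to 919, 896 and 947 CPM in the week 9 controls and 818 and 853 CPM under EMPA. Side values of untreated hearts and of HFpEF replicates 1 and 3 thus set hearts without Eif2s3y counts beside hearts with them. There the condition and this sex-linked difference cannot be told apart. RT1-CE16, one of the RT1 genes, had 922, 825 and 913 counts in the controls and 0 and 0 under EMPA, while the controls of week 5 had 1, 0 and 0. The week 9 control and EMPA animals therefore differ in RT1 counts, and so do the controls of both weeks. Whether other differences between these animals come with the RT1 difference was not tested.

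The EMPA libraries also differ from each other. Euclidean distances over log2 CPM ran from 49.8 to 82.0 within the controls, with a mean of 63.0, and the EMPA libraries lay 75.6 apart. EMPA replicate 1 was at a mean distance of 74.2 from the controls and EMPA replicate 2 at 90.8. Cartilage and tendon transcripts mark EMPA replicate 2: Col2a1, the collagen of cartilage, was at 0.338, 0 and 0.199 CPM in the controls and at 0.666 and 737 CPM under EMPA. HFpEF replicate 1 of week 5 shares this trait, with Col2a1 at 1148, 0.0917 and 1.79 CPM in the HFpEF hearts, and 2361, 65.1 and 259 CPM for the sum of 10 bone, cartilage and tendon markers. Atrial transcripts also differ between libraries: Myl7, the atrial myosin light chain, was at 1083, 10.3 and 4260.4 CPM in the controls and 8.79 and 16.8 CPM under EMPA. Control replicates 1 and 3 were high in Myl7 and control replicate 2 was near the EMPA level. Of 11 atrial and conduction genes 2 were higher and 9 lower under EMPA. They summed to 5472, 348 and 23849 CPM in the controls and 938 and 5526 CPM under EMPA, where EMPA replicate 2 was above control replicates 1 and 2. The tissue stated is left ventricle, and both sets of markers are those of other tissue. The part of these markers in the results was not tested.

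In all, 57 of 12388 genes (0.46%) differed between EMPA and control hearts of week 9 in edgeR's quasi-likelihood test. Of these, 25 rose (0.202%) and 32 fell (0.258%) under EMPA. With the adjusted p alone, 82 genes (0.662%) passed. At an unadjusted p under 0.05, 808 genes were higher (6.52%) and 959 lower (7.74%). The 2 EMPA libraries lay outside the range of the 3 controls for 4602 genes (37.1%), among them all 57. The median log2 fold change over all genes was 0.01. Each of the 57 kept its sign with any 1 of the 5 libraries left out, but the number past the threshold was 14, 18 and 47 without control replicates 1, 2 and 3, and 27 and 8 without EMPA replicates 1 and 2. Passing in all 5 of those fits were 4 genes, RT1-A3, RT1-CE14, RT1-CE16 and Top2b, while 18 passed in none of them. For scale, untreated against the same controls gave 113 genes (0.912%), EMPA against untreated 5 (0.0404%), and HFpEF against control at week 5, which shares no library with the others, 1076 (8.69%). Untreated against control fell to 21 and 7 genes without control replicates 1 and 2 and to 14 and 28 without untreated replicates 1 and 3, and rose to 413 without untreated replicate 2. EMPA against untreated rose to 15 genes without EMPA replicate 2. A fit of the 5 libraries alone called 85 genes in EMPA against control, of which 29 were among the 57. Of the genes named by rule, Arhgef16, Hcn4, Klhdc8a, Syce1, Lrtm2, Krt12, Tlx1, Slc1a1, LOC100361083, Nfil3 and Notch3 lost their call in that fit. With a replicate block, 13 of 30 such calls were lost. They were those of Slc27a2, Pik3c2g, RT1-T24-1, Lrtm2, Slc1a1, Creb5, LOC100361083, Pik3c2a, Tef, Nfil3, Rpl30, Ddah2 and Notch3.

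**Figure D1:**
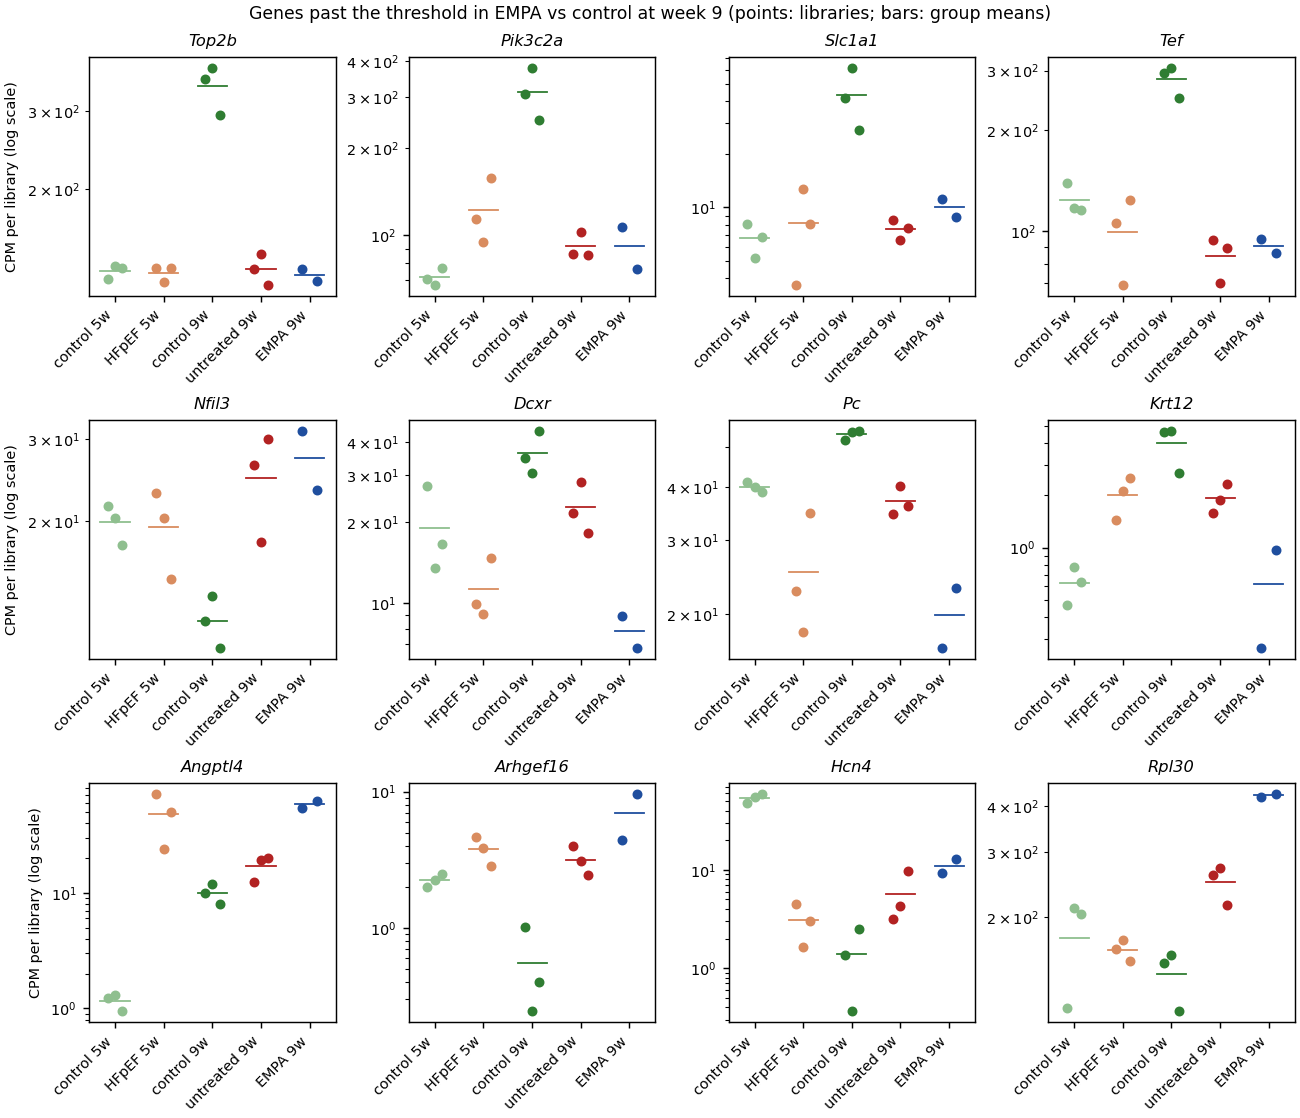
Levels of 12 genes in CPM on a log scale, with 1 point per library and a bar at each group mean, for control and HFpEF hearts of week 5 and control, untreated and EMPA hearts of week 9. For each of the 12 the EMPA points lie outside the range of the week 9 control points.

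For many of these genes the week 9 controls stand apart from all other groups. Top2b, a DNA topoisomerase of non-dividing cells, was at 353, 374 and 294 CPM in these controls and at 133 and 125 CPM under EMPA. Untreated hearts had 133, 143 and 122 CPM, controls of week 5 126, 135 and 133 CPM and HFpEF hearts 133, 124 and 133 CPM. Among these 5 groups only the week 9 controls were high. For Top2b the log2 fold change was -1.40 ± 0.13 (adjusted p = 7.59e-05 in edgeR), and it was chosen here after its values were seen. The call for Top2b held with any 1 of the 5 libraries left out, with edgeR's adjusted p between 3.64e-05 and 0.00641. Among the 57 genes, 28 (49.1%) had all 3 week 9 controls above or below all 16 other libraries, against 467 (3.77%) of all genes tested. Those controls also chose the 57, so this share is a description.

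Among clock genes, Tef was lower and Nfil3 higher in EMPA than in control hearts. Of 20 clock genes listed, 16 were tested, of which 1 rose, 1 fell and 14 did not pass. Of all genes tested 0.202% rose and 0.258% fell. Tef, an output factor of the clock that binds D-box sites, was at 295, 305 and 249 CPM in controls and 94.6 and 86.5 CPM under EMPA, 3.13-fold lower. Nfil3, a repressor that binds the same sites, was at 12.2, 13.8 and 10.7 CPM in controls and 31.3 and 23.3 CPM under EMPA. Neither gene's groups overlap, and the 2 factors moved in opposite directions. Their log2 fold changes were -1.65 ± 0.30 for Tef and 1.16 ± 0.24 for Nfil3, with adjusted p of 0.0230 and 0.0396 in edgeR. The call for Tef was lost without control replicate 1 or 2, or EMPA replicate 1 or 2, where edgeR's adjusted p was 0.0798, 0.0840, 0.116 and 0.315. The call for Nfil3 was lost without control replicate 1, 2 or 3, or EMPA replicate 1 or 2, where edgeR's adjusted p was 0.148, 0.0958, 0.102, 0.197 and 0.118. Untreated hearts were on the EMPA side, with Tef at 93.9, 70.1 and 88.9 CPM and Nfil3 at 26.4, 18 and 30 CPM.

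Other clock genes had large log2 fold changes that did not pass. Ciart, a repressor of BMAL1 and CLOCK, was at 40.4, 39.7 and 39.2 CPM in controls and 2.66 and 3.77 CPM under EMPA, with a log2 fold change of -3.62 ± 0.82 (adjusted p = 0.0589 in edgeR). Dbp, a relative of Tef, was at 207, 203 and 183 CPM against 42.6 and 34.1 CPM under EMPA (adjusted p = 0.0749). Per2, a core repressor, was at 239.7, 286 and 210.1 CPM against 69.8 and 69.1 CPM (adjusted p = 0.229). Arntl, the gene of BMAL1, was at 14.1, 17.5 and 16.5 CPM against 60.1 and 65.6 CPM (adjusted p = 0.222). For 14 of the 16 the EMPA and control libraries do not overlap, 2 were higher and 8 lower at an unadjusted p under 0.05, and the median was -0.65 beside 0.01 for all genes. Over all genes tested these shares were 37.1%, 6.52% and 7.74%. DESeq2 called 1 clock gene higher and 5 lower, and limma voom 2 and 7. Of all genes tested DESeq2 called 83 higher and 120 lower, and limma voom 235 and 171. The list's median was -0.75 in untreated against the same controls and 0.07 in HFpEF against control at week 5. In untreated against control 1 clock gene rose and 5 fell past the threshold, beside 42 and 71 of all 12388 genes. The summed level of the list was 2287, 2437 and 2080.5 CPM in controls and 1329 and 1174 CPM under EMPA. The hour of harvest is not given, so a difference in hour between groups was not tested.

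Promoters of clock genes are shown because Tef passed the test and BMAL1 with CLOCK is known to bind the E-box, CACGTG, which reads the same on both strands. In RefSeq promoters of 300 bases (build GRCr8), 15 of the 16 tested clock genes had an entry and 3 of them (20%) held CACGTG, against 1826 of 27457 promoters (6.65%) and 923 of the 9976 matched promoters of tested genes (9.25%). The 3 were Tef, Ciart and Bhlhe40. The promoters of Tef and Ciart follow with each CACGTG in capitals, and a match is a description of the sequence only.
Tef, chr7:115206577-115206876, plus strand: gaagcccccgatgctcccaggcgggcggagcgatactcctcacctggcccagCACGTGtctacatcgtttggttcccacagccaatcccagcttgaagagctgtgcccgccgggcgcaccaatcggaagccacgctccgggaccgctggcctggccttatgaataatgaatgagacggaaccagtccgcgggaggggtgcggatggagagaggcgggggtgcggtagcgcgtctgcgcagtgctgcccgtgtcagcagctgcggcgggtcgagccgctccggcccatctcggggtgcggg
Ciart, chr2:186112197-186112496, minus strand: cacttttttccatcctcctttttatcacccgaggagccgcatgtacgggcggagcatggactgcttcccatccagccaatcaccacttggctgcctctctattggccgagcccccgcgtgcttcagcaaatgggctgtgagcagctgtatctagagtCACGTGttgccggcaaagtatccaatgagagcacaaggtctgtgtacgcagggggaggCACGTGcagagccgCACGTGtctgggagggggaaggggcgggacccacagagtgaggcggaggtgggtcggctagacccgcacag

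Of the metabolic genes described next, Angptl4 and Pc belong to the gene lists used here, while Slc27a2, Dcxr and Lpin3 are in none of them. Angptl4, a secreted inhibitor of lipoprotein lipase and a target of PPAR factors, was at 9.93, 11.8 and 7.98 CPM in controls and 54.5 and 61.6 CPM under EMPA, 5.86-fold higher. Untreated hearts had 12.4, 19.2 and 19.8 CPM, so both EMPA libraries lie above both of these groups. For Angptl4 the log2 fold change was 2.55 ± 0.39 (adjusted p = 0.00827 in edgeR) against control and 1.76 (adjusted p = 0.123) against untreated. The call for Angptl4 was lost without control replicate 1 or EMPA replicate 2, where edgeR's adjusted p was 0.0558 and 0.0766. Slc27a2, an acyl-CoA synthetase that takes up long fatty acids, had 0, 0 and 0 counts in controls and 87 and 8 under EMPA, at least 18.7-fold higher against a floor of 3 counts per library (adjusted p = 0.0179 in edgeR). EMPA replicate 1 carries most of these counts, and without it the bound is 2.90-fold, while untreated hearts had 6.22, 5.12 and 4.11 CPM. The call for Slc27a2 was lost without control replicate 1, 2 or 3, or EMPA replicate 1, where edgeR's adjusted p was 0.0798, 0.0788, 0.0512 and 0.128.

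Of the enzymes that fell, Pc, pyruvate carboxylase, which makes oxaloacetate from pyruvate, was at 51.9, 54.1 and 54.4 CPM in controls and 16.6 and 23.1 CPM under EMPA. It was 2.69-fold lower, with a log2 fold change of -1.43 ± 0.21 (adjusted p = 0.00766 in edgeR). Untreated hearts lay between, at 34.6, 40.4 and 36.1 CPM, with -0.53 (adjusted p = 0.130) against control and -0.90 (adjusted p = 0.160) for EMPA against untreated. The call for Pc was lost without EMPA replicate 1, where edgeR's adjusted p was 0.0884. Dcxr, a reductase of dicarbonyls and L-xylulose, was at 35, 30.5 and 44 CPM in controls and 8.92 and 6.80 CPM under EMPA, 4.64-fold lower. The untreated values of Dcxr were 21.6, 28.4 and 18.2 CPM, below every control and above both EMPA libraries. For Dcxr the log2 fold change was -2.22 ± 0.36 (adjusted p = 0.0119 in edgeR). The call for Dcxr was lost without EMPA replicate 1 or 2, where edgeR's adjusted p was 0.0658 and 0.207. Pc overlaps Lrfn4 in RefSeq and the strand used in counting is not given, so its counts may hold reads of both.

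Lpin3, a phosphatidate phosphatase chosen after its values were seen, was at 85.5, 108 and 53.5 CPM in controls and 26.6 and 30.4 CPM under EMPA, with 25.5, 29.9 and 27.7 CPM in untreated hearts. For Lpin3 the log2 fold change was -1.53 ± 0.28 (adjusted p = 0.0230 in edgeR) and -1.57 (adjusted p = 0.00911) in untreated hearts. The call for Lpin3 was lost without control replicate 1 or 2, or EMPA replicate 1 or 2, where edgeR's adjusted p was 0.0798, 0.0908, 0.136 and 0.207. EMPA and untreated share these controls, so the pairs of values are set side by side and nothing is counted between them.

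Fatty acid genes as a list stood higher than all genes, yet none of 30 tested passed the test, and Slc27a2 is not in that list. In that list 28 were higher and 2 lower under EMPA, 5 higher at an unadjusted p under 0.05 beside 6.52% of all genes (Hadhb, Decr1, Acot1, Acot2 and Pnpla2), and the median was 0.74 beside 0.01 for all genes. DESeq2 called 2 of them higher and limma voom 7, with 0 lower in both. Of all genes tested these tools called 83 and 235 higher and 120 and 171 lower. The median was 0.45 without EMPA replicate 1 and 0.99 without EMPA replicate 2, above 0 in both. Decr1, a reductase needed to oxidize unsaturated fatty acids, was at 167, 185 and 170.1 CPM in controls and 819.9 and 479 CPM under EMPA, with a log2 fold change of 1.90 ± 0.47 (adjusted p = 0.0811 in edgeR). Of 28 genes of the citric acid cycle and pyruvate, only Pc changed, beside 0.46% of all genes past the threshold. Of the 28, 26 were higher, and the median was 0.41, or 0.19 without EMPA replicate 1. Of 75 oxidative phosphorylation genes none passed, 0 had an unadjusted p under 0.05, and the median was 0.14, which with 1 library left out ran from -0.04 without EMPA replicate 1 to 0.31 without EMPA replicate 2. Of 26 glycolysis genes none passed, 5 were higher and 0 lower at an unadjusted p under 0.05, and the median was 0.42, or 0.28 without EMPA replicate 1. At week 5 the medians of these 4 lists in HFpEF against control were -0.52, -1.09, -0.53 and -0.87, all below 0. In untreated hearts of week 9 against the same controls they were 0.75, 0.58, 0.08 and 0.49.

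Ketone and PPAR-alpha target genes numbered 25, of which Angptl4 rose and none fell, with 7 higher and 0 lower at an unadjusted p under 0.05, beside 0.46% of all genes past the threshold and 6.52% higher at that p, and a median of 0.29, which ran from 0.20 without control replicate 2 to 0.44 without control replicate 3. Pdk4, a brake on glucose oxidation, was at 105, 153 and 93.3 CPM in controls and 507 and 302 CPM under EMPA, but its log2 fold change of 1.79 ± 0.63 did not pass (adjusted p = 0.227 in edgeR). Untreated hearts had 413, 124 and 346 CPM, with replicate 2 at the control level. Plin2, a coat protein of lipid droplets, was at 73.1, 61.9 and 88.2 CPM in controls and 124 and 163 CPM under EMPA (adjusted p = 0.0846). Of 16 genes of branched-chain amino acid breakdown none passed, 1 was higher and 1 lower at an unadjusted p under 0.05, and the median was 0.13, from -0.03 without EMPA replicate 1 to 0.27 without EMPA replicate 2. Of 14 genes of sodium and proton handling none passed. Their median was -0.01, from -0.13 without EMPA replicate 1 to 0.07 without EMPA replicate 2. At an unadjusted p under 0.05, 1 was higher and 1 lower. The latter was Sgk1, a kinase that raises sodium transport, at 479, 536 and 330.2 CPM in controls and 237 and 210.5 CPM under EMPA (adjusted p = 0.0786).

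Among ion channel genes, the pacemaker gene Hcn4 was higher in EMPA than in control hearts. It was at 1.35, 0.369 and 2.49 CPM in controls and 9.19 and 12.9 CPM under EMPA, 7.85-fold higher, and the groups do not overlap. Untreated hearts had 3.17, 4.30 and 9.69 CPM, with replicate 3 above EMPA replicate 1. The log2 fold change was 0.95 for EMPA against untreated and 1.97 for untreated against control (adjusted p = 0.617 and 0.0641 in edgeR). Controls of week 5 had 48, 54.7 and 59 CPM and HFpEF hearts 4.52, 1.65 and 3.04 CPM, so the week 9 controls lay far below the week 5 controls and near the HFpEF hearts. For Hcn4 the log2 fold change was 2.92 ± 0.55 (adjusted p = 0.0266 in edgeR), against -4.11 ± 0.48 at week 5. The call for Hcn4 was lost without control replicate 1 or 2, or EMPA replicate 1 or 2, where edgeR's adjusted p was 0.117, 0.0946, 0.0658 and 0.249. Without control replicate 3, Hcn4 had a log2 fold change of 3.64. Hcn4 is also in the list of atrial and conduction tissue, where 1 of 11 rose and 5 were lower at an unadjusted p under 0.05 (6.52% of all genes were higher and 7.74% lower). Among controls Hcn4 was highest in replicate 3 and lowest in replicate 2, as Myl7 was, and the part of atrial tissue in its values was not tested. Of 26 ion channel genes 1 rose and none fell, beside 0.46% of all genes past the threshold, 4 were higher and 3 lower at an unadjusted p under 0.05, and the median was -0.01, or 0.17 without control replicate 3. Scn1a, a sodium channel gene, was at 15.2, 17.6 and 12.7 CPM in controls, 34.5 and 37.7 CPM under EMPA and 7.70, 6.82 and 9.06 CPM in untreated hearts. Against control its 1.25 ± 0.27 did not pass (adjusted p = 0.0525 in edgeR), and against untreated its 2.20 ± 0.28 did (adjusted p = 0.00657). EMPA and untreated libraries also differ in Eif2s3y and RT1-CE16 counts, and in that call these differences and EMPA cannot be told apart. That call held with any 1 of the untreated and EMPA libraries left out, with adjusted p between 0.0217 and 0.0356 in edgeR, and was lost in a fit of those 5 libraries alone and with a replicate block (adjusted p = 0.0592 and 0.0524 in edgeR).

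Myocd, myocardin, a coactivator of muscle genes, was at 24.9, 33.1 and 29.3 CPM in controls and 83 and 87.7 CPM under EMPA, a rise of 1.55 ± 0.30 on the log2 scale (adjusted p = 0.0279 in edgeR). Untreated hearts had 61.4, 26.8 and 56.2 CPM, with replicate 2 within the controls. Myocd was chosen after its values were seen. The call for Myocd was lost without control replicate 1, 2 or 3, or EMPA replicate 1 or 2, where edgeR's adjusted p was 0.139, 0.0840, 0.0711, 0.104 and 0.228. Contractile genes did not pass: of 26 sarcomere genes none rose or fell, 22 were higher, 5 at an unadjusted p under 0.05 (6.52% of all genes were higher and 7.74% lower) against 0 lower, and the median was 0.49. Myh6, the fast myosin heavy chain of rat heart, was at 9613, 10731 and 11269.5 CPM in controls and 4559 and 1707 CPM under EMPA, while Myh7, the slow chain, was at 5114, 5299.9 and 4234 CPM and 10422 and 10734 CPM. Their groups do not overlap, but the log2 fold changes of -1.75 ± 0.87 and 1.12 ± 0.78 did not pass (adjusted p = 0.380 and 0.539 in edgeR). Nppa, the atrial natriuretic peptide, ran from 173 to 16876 CPM within the controls and was at 678 and 5124 CPM under EMPA, so the groups overlap.

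Among 26 genes of calcium handling none passed, with 4 higher and 2 lower at an unadjusted p under 0.05 (6.52% of all genes were higher and 7.74% lower) and a median of 0.26. Of 21 genes of the fetal program and hypertrophy none passed, 3 were higher and 3 lower at that level, and the median was 0.22. Xirp2, an actin-binding protein of the muscle cell junction, was at 186, 201 and 379 CPM in controls and 778 and 3334 CPM under EMPA, highest in EMPA replicate 2 (adjusted p = 0.158 in edgeR). Of 29 chaperone genes none passed, 2 were higher and 1 lower at an unadjusted p under 0.05, and the median was 0.24. With 1 library left out these medians ran from 0.15 without EMPA replicate 1 to 0.29 without control replicate 3 for calcium handling, from 0.02 without EMPA replicate 2 to 0.65 without EMPA replicate 1 for the fetal program and from 0.18 without control replicate 1 to 0.37 without EMPA replicate 1 for chaperones. The week 5 medians of HFpEF against control were -1.12 for sarcomere, -0.92 for calcium handling and -1.09 for ion channel genes. Marker sums also differed between libraries of week 5: cardiomyocyte markers summed to 92948, 38233 and 42909.9 CPM in controls and 13232, 26858 and 39240.5 CPM in HFpEF hearts, and fibroblast markers to 8358, 44784 and 36678 and 21007, 18262 and 18056 CPM. The part of tissue make-up in the week 5 medians was not tested.

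RT1 genes differed in both directions between EMPA and control hearts. RT1-CE16 had 922, 825 and 913 counts in controls and 0 and 0 under EMPA, at least 259-fold lower against a floor of 3 counts per library (adjusted p = 1.53e-07 in edgeR). Likewise RT1-Bb, a class II chain, had 195, 147 and 183 counts in controls and 0 and 0 under EMPA, at least 50.9-fold lower (adjusted p = 0.00504), and RT1-A3 had 57, 72 and 65 against 0 and 0 counts, at least 19-fold lower (adjusted p = 0.00388). The other way, RT1-A2, a class I gene, had 221, 207 and 223 counts in controls and 918 and 829 under EMPA, a rise of 2.20 ± 0.35 on the log2 scale (adjusted p = 0.0119 in edgeR). RT1-CE14 had 17, 9 and 13 against 151 and 143 counts and rose by 3.69 ± 0.52 (adjusted p = 0.00641). RT1-CE5 had 117, 133 and 111 against 483 and 405 counts and RT1-T24-1 had 11, 14 and 15 against 91 and 105, both higher under EMPA (adjusted p = 0.0121 and 0.0178 in edgeR). Untreated hearts had 61.5, 55.5 and 64.9 CPM of RT1-CE16. Their RT1-Bb was at 13.6, 25.3 and 11 CPM and RT1-A3 at 4.33, 3.41 and 5.58 CPM. EMPA against untreated passed in each of these (adjusted p = 4.32e-07, 0.0101 and 0.0101 in edgeR), and untreated against control in none. Untreated against control passed for RT1-A2, RT1-CE14, RT1-CE5 and RT1-T24-1, all higher (adjusted p = 0.0236, 0.0242, 0.0305 and 0.0326 in edgeR). In each RT1 gene named so far all EMPA counts lie on 1 side of all control counts. The call for RT1-CE16 held with any 1 of the 5 libraries left out, with edgeR's adjusted p between 9.48e-07 and 1.30e-05. The call for RT1-CE14 held with any 1 of the 5 libraries left out, with edgeR's adjusted p between 0.0244 and 0.0386. The call for RT1-A3 held with any 1 of the 5 libraries left out, with edgeR's adjusted p between 0.0108 and 0.0449.

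Other RT1 calls depended on single libraries. The call for RT1-Bb was lost without EMPA replicate 2, where edgeR's adjusted p was 0.0528. The call for RT1-A2 was lost without control replicate 1 or 2, or EMPA replicate 1 or 2, where edgeR's adjusted p was 0.0647, 0.0559, 0.0658 and 0.0573. The call for RT1-CE5 was lost without control replicate 1, or EMPA replicate 1 or 2, where edgeR's adjusted p was 0.0714, 0.0884 and 0.0573. The call for RT1-T24-1 was lost without control replicate 1, 2 or 3, or EMPA replicate 1 or 2, where edgeR's adjusted p was 0.106, 0.0788, 0.0587, 0.0684 and 0.119. RT1-N2, at 0, 0 and 0 counts in controls and 8 and 10 under EMPA, and RT1-CE10, at 392, 414 and 335 and 141 and 126 counts, were named after their values were seen (adjusted p = 0.0388 and 0.0352 in edgeR). Untreated against control passed for both too, in the same directions (adjusted p = 0.0284 and 0.0238 in edgeR). The call for RT1-N2 was lost without control replicate 1, 2 or 3, or EMPA replicate 1 or 2, where edgeR's adjusted p was 0.119, 0.112, 0.0811, 0.101 and 0.223. The call for RT1-CE10 was lost without control replicate 1 or 2, or EMPA replicate 1 or 2, where edgeR's adjusted p was 0.115, 0.118, 0.116 and 0.465. Reads of near-identical RT1 genes can be counted for the wrong member, so counts of single members are uncertain.

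**Figure D2:**
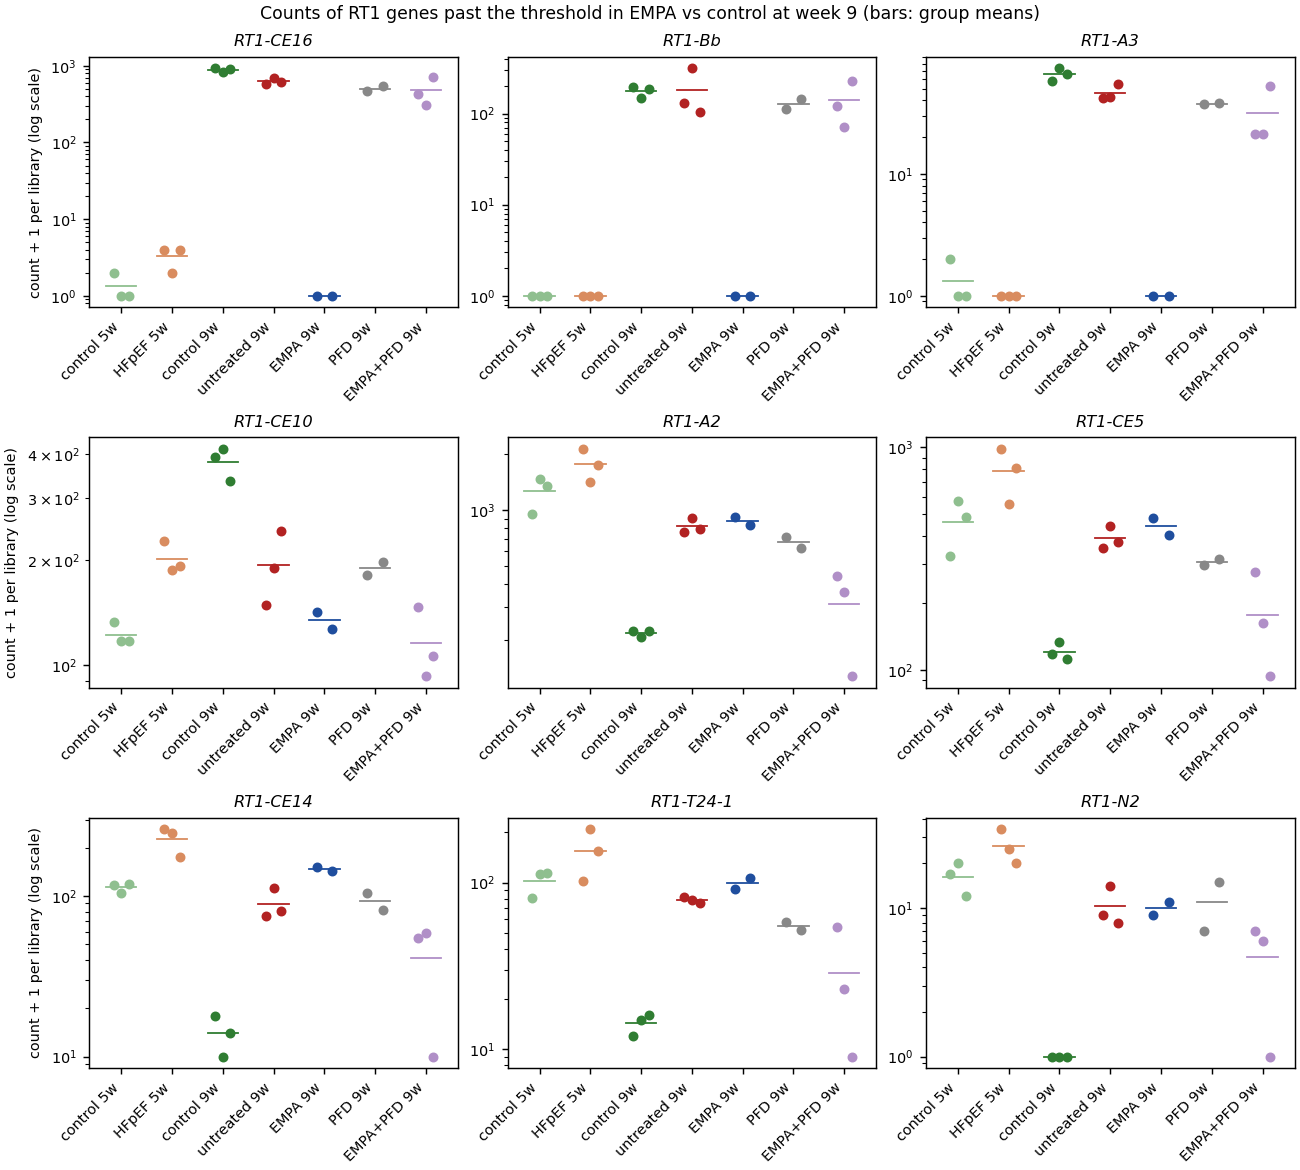
Counts plus 1 of 9 RT1 genes on a log scale, with 1 point per library for all 7 groups of the series. RT1-CE16 stands at 583 to 922 counts in the control and untreated libraries of week 9 and at 0 in both EMPA libraries.

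By position, 12 of the 57 changed genes lie among the RT1 genes. Between the first and the last RT1 gene on chromosome 20, by RefSeq order in GRCr8, 12 of 124 tested genes (9.68%) changed, 6 up and 6 down, while 45 of the other 12264 (0.367%) did, 19 up and 26 down. RT1 genes themselves make up 9 of the 12. The other 3, among 94 tested non-RT1 genes there (3.19%), were Tap2, Nrm and Ddah2. Tap2, part of the peptide transporter for class I molecules, was at 26.8, 31.9 and 23.8 CPM in controls and 12.4 and 8.26 CPM under EMPA, with 19.7, 23.9 and 21.1 CPM in untreated hearts. For Tap2 the log2 fold change was -1.41 ± 0.21 (adjusted p = 0.00684 in edgeR), and -0.35 in untreated against control. The call for Tap2 was lost without EMPA replicate 2, where edgeR's adjusted p was 0.118. Nrm, a protein of the nuclear membrane, fell with -1.11 ± 0.23 (adjusted p = 0.0393), and both were named after their values were seen. The call for Nrm was lost without control replicate 1, 2 or 3, or EMPA replicate 1 or 2, where edgeR's adjusted p was 0.0845, 0.128, 0.0597, 0.0658 and 0.567. With all genes of that stretch left out of the fit, 35 genes passed, all among the 45 changed genes outside it. This alternative was chosen after seeing the data. Of the listed 37 tested genes of the complex, 5 rose and 5 fell, and the median of -0.11 was the same with the 4 genes at 0 in either group set to their bounds. With single libraries left out that median ran from -0.35 without EMPA replicate 1 to 0.00 without EMPA replicate 2.

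Interferon genes stood lower under EMPA as a list, with no call at the fold threshold. Of 26 tested, none rose or fell at least 2-fold past the test, 20 were lower, 8 at an unadjusted p under 0.05 against 0 higher, and the median was -0.45, beside 7.74% lower and 6.52% higher at that p among all genes. Single libraries moved this median from -0.72 without EMPA replicate 1 to -0.24 without control replicate 2, below 0 in all 5 fits. Irf9, which carries interferon signals to DNA, was at 74.7, 88.7 and 60.7 CPM in controls and 46.2 and 39.8 CPM under EMPA, with -0.80 ± 0.16 (adjusted p = 0.0388 in edgeR) and less than a 2-fold difference. Irf7, which amplifies that response, was at 220.4, 245 and 129 CPM against 103 and 63 CPM (adjusted p = 0.135). In untreated against control the median was -0.60. In HFpEF against control at week 5 it was 0.70, with 7 genes higher and 0 lower past the threshold. Of all 12388 genes 530 were higher and 546 lower past it at week 5.

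Ccl22, a chemokine that draws T cells and is not in the cytokine and chemokine list, rose under EMPA. It had 3, 1 and 2 counts in controls and 19 and 36 under EMPA, a ratio of pooled rates of 15.7 with an exact 95% counting interval from 6.79 to 44.7 (adjusted p = 0.00760 in edgeR). Untreated hearts had 1.48, 2.19 and 1.26 CPM, between the groups. The call for Ccl22 was lost without EMPA replicate 2, where edgeR's adjusted p was 0.0919. Alox15, a lipoxygenase that makes lipid mediators, was at 1.92, 2.09 and 2.69 CPM in controls, 48.6 and 8.26 CPM under EMPA and 0.211, 0.568 and 0.527 CPM in untreated hearts. EMPA replicate 1 was the highest of them. Its 3.66 ± 0.80 against control did not pass (adjusted p = 0.0525 in edgeR), and its 5.96 ± 0.94 against untreated did (adjusted p = 0.0321). The latter compares libraries that also differ in Eif2s3y and RT1-CE16 counts, which cannot be told apart from EMPA. The latter call was lost without untreated replicate 1, 2 or 3 or EMPA replicate 1, where edgeR's adjusted p was 0.220, 0.112, 0.134 and 0.169, in a fit of those 5 libraries alone (adjusted p = 0.413), with a replicate block (0.117), with limma voom (0.0711) and without the RT1 stretch (0.0793). Without EMPA replicate 1 the log2 fold change of Alox15 was 1.88 against control and 4.18 against untreated, and without EMPA replicate 2 it was 4.43 and 6.73. Of 36 cytokine and chemokine genes tested, which hold Alox15, none passed, with 3 higher and 4 lower at an unadjusted p under 0.05 (6.52% of all genes were higher and 7.74% lower) and a median of 0.26, from -0.10 without EMPA replicate 1 to 0.47 without EMPA replicate 2. Of 21 NF-kB genes none passed, 2 were higher and 2 lower, with a median of 0.11, from 0.03 without control replicate 2 to 0.15 without EMPA replicate 2. Of 25 immediate early genes none passed, 2 were higher and 5 lower, with a median of 0.13, from 0.02 without EMPA replicate 2 to 0.43 without control replicate 3.

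Among vessel wall markers, those of endothelium were mostly lower under EMPA and those of smooth muscle mostly higher. Of 12 endothelial markers none passed, 11 were lower under EMPA, 6 at an unadjusted p under 0.05 (6.52% of all genes were higher and 7.74% lower), and the median was -0.53. Their summed level was 8100.5, 9302 and 6215 CPM in controls and 6642 and 4893 CPM under EMPA, led by Fabp4, with overlapping groups. Eng, a co-receptor for TGF-beta on endothelium, was at 977, 869 and 1002 CPM against 599 and 485 CPM (adjusted p = 0.125 in edgeR). In bulk tissue, fewer cells of a type and less RNA per cell cannot be told apart. Of 10 smooth muscle and pericyte markers 1 rose, beside 0.202% of all genes. In this list 5 were higher at an unadjusted p under 0.05, and the median was 0.92, but 0.05 without EMPA replicate 2. The summed level was 1711, 1708 and 1489.6 CPM in controls and 1589 and 3697 CPM under EMPA, led by Mcam and high in EMPA replicate 2 alone. Notch3, the Notch receptor of smooth muscle, was the marker that rose, at 95.2, 86.6 and 92.1 CPM in controls and 131 and 249 CPM under EMPA, with 1.06 ± 0.23 (adjusted p = 0.0473 in edgeR). Untreated hearts had 179, 145 and 158 CPM, all above EMPA replicate 1. EMPA against untreated was 0.24 (adjusted p = 0.841 in edgeR). The call for Notch3 was lost without control replicate 1, 2 or 3, or EMPA replicate 2, where edgeR's adjusted p was 0.154, 0.155, 0.0965 and 0.754. Notch3 also lost its call with upper-quartile factors, with no filter beyond 1 count, with limma voom and with a replicate block. The part of these cell types in other results was not tested.

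Further signaling genes that fell were Lfng, Id1 and Fgfr3, each named after its values were seen. Lfng, a sugar transferase that modifies Notch receptors, was at 55.9, 60 and 45.6 CPM in controls and 17.7 and 19.8 CPM under EMPA and fell with -1.52 ± 0.22 (adjusted p = 0.00641 in edgeR). Id1, an inhibitor of helix-loop-helix factors, was at 415, 460.1 and 305 CPM against 186 and 135 CPM and Fgfr3, a fibroblast growth factor receptor, at 94, 88.5 and 81.2 CPM against 32.4 and 42.6 CPM. Id1 fell with -1.29 ± 0.27 and Fgfr3 with -1.23 ± 0.21 (adjusted p = 0.0424 and 0.0160 in edgeR), and in HFpEF against control at week 5 both had been higher, by 1.67 and 1.42. The call for Lfng was lost without EMPA replicate 1 or 2, where edgeR's adjusted p was 0.0658 and 0.0672. The call for Id1 was lost without control replicate 1 or 2, or EMPA replicate 1 or 2, where edgeR's adjusted p was 0.142, 0.129, 0.104 and 0.567. The call for Fgfr3 was lost without control replicate 1 or 2, or EMPA replicate 1 or 2, where edgeR's adjusted p was 0.0774, 0.0615, 0.136 and 0.0884. Of 23 angiogenesis genes none passed, 1 was higher and 5 lower at an unadjusted p under 0.05 (6.52% of all genes were higher and 7.74% lower), and the median was -0.33.

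Nitric oxide is what L-NAME lowers, and 22 genes of its pathway were tested. Ddah2, of a family named for clearing an inhibitor of nitric oxide synthase, was at 51.3, 46.2 and 41.5 CPM in controls and 115 and 122 CPM under EMPA, above 54.5, 84.2 and 67.3 CPM in untreated hearts. It rose by 1.35 ± 0.28 on the log2 scale (adjusted p = 0.0434 in edgeR) and lies in the RT1 stretch of chromosome 20. That call was lost with upper-quartile factors and with a replicate block. The call for Ddah2 was lost without control replicate 1, 2 or 3, or EMPA replicate 1 or 2, where edgeR's adjusted p was 0.122, 0.134, 0.104, 0.128 and 0.337. No other gene of the list passed, beside 0.46% of all genes, 3 were higher and 6 lower at an unadjusted p under 0.05 (6.52% of all genes were higher and 7.74% lower), and the median was -0.13, from -0.30 without control replicate 3 to 0.05 without control replicate 2. Npr1, the receptor for natriuretic peptides, was at 209, 248 and 167 CPM in controls and 134 and 94.3 CPM under EMPA (adjusted p = 0.159).

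Ribosomal protein genes were mostly higher under EMPA, by small amounts. Of 75 tested 1 rose and none fell, 70 were higher, 21 at an unadjusted p under 0.05 against 0 lower, and in 59 the groups do not overlap. Over all genes tested 0.202% rose and 0.258% fell. At that p 6.52% were higher and 7.74% lower, and in 37.1% the groups do not overlap. The median was 0.26, and 0.32 and 0.17 without EMPA replicates 1 and 2. It was 0.25 with RLE scaling and 0.25 with upper-quartile scaling. Their summed level was 35519, 35635 and 33668 CPM in controls and 39929 and 45421 CPM under EMPA. Rpl30, the gene that rose, was at 150.0, 158 and 111 CPM in controls and 425 and 433 CPM under EMPA, 3.07-fold higher, with untreated hearts between at 261, 272 and 216 CPM. For Rpl30 the log2 fold change was 1.62 ± 0.32 (adjusted p = 0.0352 in edgeR). The call for Rpl30 was lost without control replicate 1, 2 or 3, or EMPA replicate 1 or 2, where edgeR's adjusted p was 0.115, 0.0958, 0.0953, 0.116 and 0.228. In untreated against the same controls the median of the list was -0.03. In HFpEF against control at week 5 it was 0.35, with 71 of 75 higher, 53 higher and 1 lower at an unadjusted p under 0.05. Past an adjusted p of 0.05, 28 were higher, but 0 at least 2-fold. Of all 12388 genes at week 5, 2199 were higher and 2237 lower at an unadjusted p under 0.05. Past an adjusted p of 0.05, 1218 of them were higher, 530 at least 2-fold.

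Matrix genes follow EMPA replicate 2. Of 42 tested none passed, 32 were higher, 6 at an unadjusted p under 0.05 (6.52% of all genes were higher and 7.74% lower) against 1 lower, and the median of 0.52 turned to -0.25 without that library and was 0.94 without EMPA replicate 1. Col1a1, the main collagen of scar, was at 325, 205 and 402 CPM in controls and 316 and 2989 CPM under EMPA (adjusted p = 0.261 in edgeR). EMPA replicate 1 was within the controls and EMPA replicate 2 far above them. Of 10 bone, cartilage and tendon markers none passed, 8 were higher at an unadjusted p under 0.05, and the median of 3.31 turned to -0.32 without EMPA replicate 2. Their summed level was 58.4, 55.6 and 85.4 CPM in controls and 77.1 and 1904 CPM under EMPA, led by Col2a1. Of 10 fibroblast markers none passed, 1 was higher and 1 lower, the median of 0.44 turned to -0.18 without EMPA replicate 2 and was 0.92 without EMPA replicate 1, and the summed level was 8927, 6147 and 8961 CPM in controls and 7035 and 10101 CPM under EMPA, led by Gsn. Of 28 TGF-beta and WNT genes none passed, 1 was higher and 4 lower, and the median was -0.13, or 0.15 and -0.59 without EMPA replicates 1 and 2 and 0.09 without control replicate 3.

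Slc1a1 and Pik3c2a, which are in none of the lists, fell under EMPA. Slc1a1, a carrier of glutamate, was at 41.3, 61.4 and 27.4 CPM in controls and 11.2 and 8.87 CPM under EMPA, 4.32-fold lower, and at 8.44, 6.58 and 7.69 CPM in untreated hearts. For Slc1a1 the log2 fold change was -2.11 ± 0.43 (adjusted p = 0.0396 in edgeR), and -2.52 (adjusted p = 0.00888) in untreated against control. Only controls of week 9 were high, at values that spread among themselves. The call for Slc1a1 was lost without control replicate 1 or 2, or EMPA replicate 1 or 2, where edgeR's adjusted p was 0.115, 0.128, 0.136 and 0.506. Pik3c2a, a class II phosphoinositide kinase, was at 307, 379 and 250.3 CPM in controls, 107 and 76.8 CPM under EMPA and 86.2, 103 and 85.9 CPM in untreated hearts. It was 3.41-fold lower under EMPA, with -1.77 ± 0.33 (adjusted p = 0.0266 in edgeR), and EMPA against untreated was 0.00 (adjusted p = 1). The call for Pik3c2a was lost without control replicate 1 or 2, or EMPA replicate 1 or 2, where edgeR's adjusted p was 0.0798, 0.0958, 0.0982 and 0.410. Slc1a1 overlaps Spata6l in RefSeq, so its counts may hold reads of both.

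Transcription factors among the falls were Creb5, Tlx1 and Bcl6. Creb5, of the CREB family, was at 33.2, 29.6 and 27.8 CPM in controls and 7.06 and 8.87 CPM under EMPA, with -1.92 ± 0.39 (adjusted p = 0.0389 in edgeR). Tlx1, a homeobox factor, was at 7.56, 12.8 and 7.98 CPM against 0.799 and 2.31 CPM, with -2.58 ± 0.43 (adjusted p = 0.0121). Bcl6, a repressor named after its values were seen, was at 67.8, 47.1 and 65.4 CPM against 19.7 and 25 CPM, with -1.43 ± 0.23 (adjusted p = 0.0119 in edgeR). In all of them the EMPA libraries were below every control. Untreated hearts had 10.4, 15.8 and 11.9 CPM of Creb5, 6.22, 5.20 and 6.22 CPM of Tlx1 and 18.4, 26.1 and 16.3 CPM of Bcl6. The call for Creb5 was lost without control replicate 1, 2 or 3, or EMPA replicate 1 or 2, where edgeR's adjusted p was 0.119, 0.102, 0.0597, 0.178 and 0.293. The call for Tlx1 was lost without control replicate 2 or EMPA replicate 1, where edgeR's adjusted p was 0.0559 and 0.103. Without EMPA replicate 2, Tlx1 had a log2 fold change of -3.54. The call for Bcl6 was lost without control replicate 1, or EMPA replicate 1 or 2, where edgeR's adjusted p was 0.0630, 0.107 and 0.0792.

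Genes of low level that fell include Krt12, Lrtm2 and Syce1. Krt12, a keratin known from the cornea, was at 4.62, 4.67 and 2.69 CPM in controls and 0.266 and 0.972 CPM under EMPA, with -2.64 ± 0.50 (adjusted p = 0.0266 in edgeR). Lrtm2, a membrane protein with leucine-rich repeats, had 23, 23 and 20 counts in controls and 1 and 4 under EMPA, with -2.92 ± 0.60 (adjusted p = 0.0396). Syce1, of the complex that pairs chromosomes in meiosis, had 21, 23 and 22 counts in controls and 1 and 0 under EMPA, a ratio of pooled rates of 0.0260 with an exact 95% counting interval from 0.000649 to 0.150 (adjusted p = 0.0434 in edgeR). The groups do not overlap in these genes, at few counts. LOC100361083, without a name, was at 23.6, 17.3 and 26.9 CPM in controls and 9.19 and 3.64 CPM under EMPA, with -1.82 ± 0.39 (adjusted p = 0.0461 in edgeR). The call for Krt12 was lost without control replicate 1 or 2, or EMPA replicate 1 or 2, where edgeR's adjusted p was 0.101, 0.0911, 0.146 and 0.0575. Without EMPA replicates 1 and 2, Krt12 had a log2 fold change of -2.02 and -3.84. The call for Lrtm2 was lost without control replicate 1, 2 or 3, or EMPA replicate 1 or 2, where edgeR's adjusted p was 0.119, 0.112, 0.0538, 0.195 and 0.156. Without EMPA replicates 1 and 2, Lrtm2 had a log2 fold change of -2.31 and -4.09. The call for Syce1 was lost without control replicate 1, 2 or 3, or EMPA replicate 1 or 2, where edgeR's adjusted p was 0.116, 0.112, 0.0676, 0.122 and 0.547. Without EMPA replicates 1 and 2, Syce1 had a log2 fold change of -7.66 and -4.09. The call for LOC100361083 was lost without control replicate 1, 2 or 3, or EMPA replicate 2, where edgeR's adjusted p was 0.144, 0.0788, 0.0964 and 0.575. Without EMPA replicate 1, LOC100361083 had a log2 fold change of -2.63. Lrtm2 overlaps Cacna2d4 in RefSeq, so its counts may hold reads of both.

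Further rises outside the lists were those of Pik3c2g, Arhgef16 and Klhdc8a. Pik3c2g, a class II phosphoinositide kinase, was at 1.80, 4.80 and 1.60 CPM in controls, 174 and 125 CPM under EMPA and 144, 2.60 and 44.7 CPM in untreated hearts, 54.8-fold higher under EMPA than in controls with 5.80 ± 1.14 (adjusted p = 0.0348 in edgeR). Untreated replicate 2 was at the level of the controls. Arhgef16 was at 1.02, 0.246 and 0.399 CPM against 4.39 and 9.60 CPM, 12.6-fold higher, with 3.63 ± 0.53 (adjusted p = 0.00684 in edgeR). Klhdc8a was at 0.677, 0.861 and 0.997 CPM against 2.26 and 5.59 CPM, with 2.20 ± 0.38 (adjusted p = 0.0164). Untreated hearts had 4.01, 3.09 and 2.42 CPM of Arhgef16 and 2.11, 1.54 and 2.32 CPM of Klhdc8a. Untreated against control was 2.49 for Arhgef16 and 1.21 for Klhdc8a (adjusted p = 0.0256 and 0.0899 in edgeR).

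These rises depended on single libraries too. The call for Pik3c2g was lost without control replicate 1, 2 or 3, or EMPA replicate 1 or 2, where edgeR's adjusted p was 0.163, 0.102, 0.0965, 0.0989 and 0.118. Without control replicate 2, Pik3c2g had a log2 fold change of 6.45. The call for Arhgef16 was lost without EMPA replicate 2, where edgeR's adjusted p was 0.0935. Without control replicate 1 and EMPA replicate 2, Arhgef16 had a log2 fold change of 4.37 and 2.96. The call for Klhdc8a was lost without control replicate 1 or 2, or EMPA replicate 2, where edgeR's adjusted p was 0.0959, 0.0788 and 0.462. Without EMPA replicate 2, Klhdc8a had a log2 fold change of 1.40.

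Disease differences of week 5 were followed into the EMPA hearts with the 1076 genes that differed between HFpEF and control hearts at that week. That set rests on few libraries: 460 passed in a fit of the 6 libraries alone, of which 448 were among the 1076, and 813 passed without both HFpEF libraries with 0 Eif2s3y counts, an alternative chosen after seeing the data, of which 457 were. Of the 1076, 11 also changed in EMPA against control at week 9, beside 57 of all 12388 genes (0.46%). Among all 57, 21 had the same sign at week 5 and 35 the opposite sign, whatever their test at week 5, and RT1-Bb had no counts there. Of the 11, Angptl4 was higher at both weeks, and 10 went the other way: Hcn4, Klhdc8a and Myocd, lower at week 5 and higher at week 9, and Chrdl1, Fgfr3, Id1, Krt12, St6galnac3, Syce1 and Tlx1, higher and then lower. Chrdl1, an antagonist of BMP signals, was at 14.7, 26.9 and 26.4 CPM in controls and 7.06 and 6.92 CPM under EMPA, and St6galnac3, a sialic acid transferase, at 17.6, 14.6 and 17.3 CPM and 5.73 and 4.01 CPM (adjusted p = 0.0388 and 0.0121 in edgeR). The call for Chrdl1 was lost without control replicate 2 or 3, or EMPA replicate 1 or 2, where edgeR's adjusted p was 0.122, 0.0812, 0.146 and 0.392. The call for St6galnac3 was lost without control replicate 1, or EMPA replicate 1 or 2, where edgeR's adjusted p was 0.0647, 0.0549 and 0.228.

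As a set, the week 5 genes did not keep their direction under EMPA more often than other genes. Of the 1076, 365 (33.9%) had the same sign at both weeks, against 41.2% of all genes tested. Of the 530 that were higher at week 5, 225 (42.5%) were higher under EMPA at week 9, with a median of -0.15 where week 5 had 1.65. Of the 546 that were lower, 140 (25.6%) were lower, with a median of 0.28 where week 5 had -1.48. In untreated hearts of week 9 the medians of these 2 sets were -0.25 and 0.36. At an unadjusted p under 0.05 in EMPA against control, 44 of the 1076 had the same sign as at week 5 and 138 the opposite sign, and of all genes tested 607 and 1159 did, so opposite signs were the more frequent there too. A test of the difference between the 2 comparisons called 1148 genes (9.27%), 572 of them among the 1076. Without EMPA replicate 2 that number was 252, and without control replicates 1 and 2 of week 9 it was 657 and 619. The 2 comparisons use different controls, and week, controls and animals cannot be told apart.

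**Figure D3:**
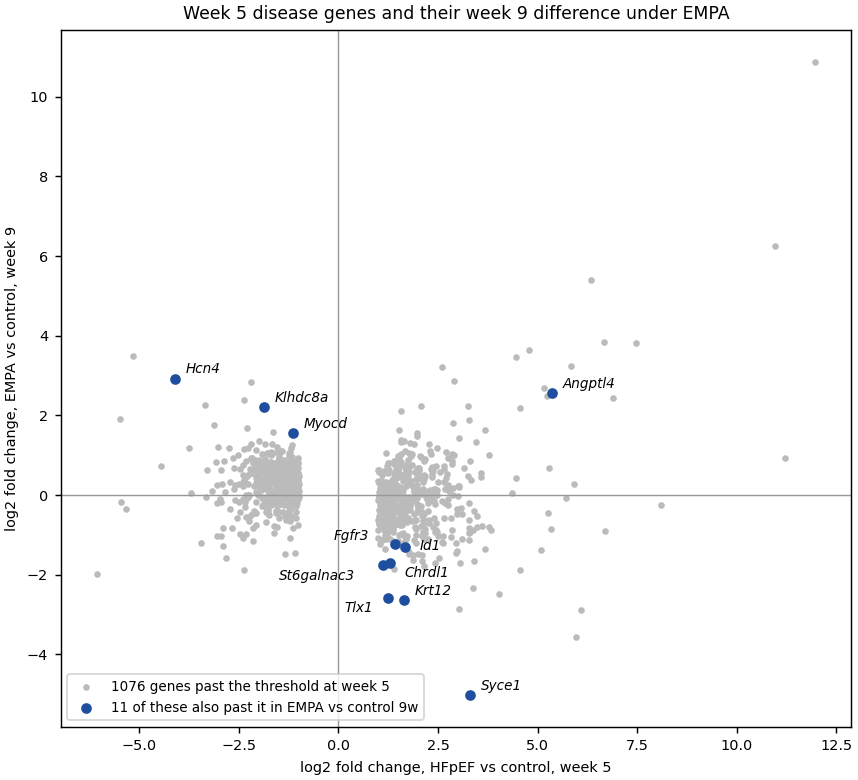
Log2 fold change in EMPA against control at week 9 (y axis) against that in HFpEF against control at week 5 (x axis), with 1 point for each of the 1076 genes past the threshold at week 5. The 11 genes also past it at week 9 are named, and of these only Angptl4 lies above 0 on both axes.

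Angptl4 was at 1.22, 1.32 and 0.955 CPM in controls of week 5 and 71.3, 23.7 and 49.8 CPM in HFpEF hearts, a log2 fold change of 5.36 ± 0.44 (adjusted p = 5.04e-05 in edgeR). At week 9 the difference from control was 2.55 under EMPA and 0.80 (adjusted p = 0.254) in untreated hearts. The week 9 controls were higher than those of week 5, and the 2 differences differed by -2.81 ± 0.59 (adjusted p = 0.0102 in edgeR).

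Cell markers other than those above were measured in the same way, and none of their genes passed apart from Hcn4 in the atrial list. Of 10 cardiomyocyte markers none had an unadjusted p under 0.05 (6.52% of all genes were higher and 7.74% lower), and their summed level was 40251, 48066 and 43108 CPM in controls and 53255 and 40479 CPM under EMPA, led by Mb, with a median of 0.37, from 0.21 without EMPA replicate 1 to 0.55 without EMPA replicate 2. Atrial and conduction genes summed to 5472, 348 and 23849 CPM in controls and 938 and 5526 CPM under EMPA, led by Nppa, with a median of -1.16 over 11 genes, from -1.59 without control replicate 2 to -0.21 without control replicate 3. Of 14 macrophage and myeloid markers 1 was lower at an unadjusted p under 0.05, and the sum was 859, 754 and 962 CPM against 1157 and 898 CPM, led by Cd74, with a median of 0.12, from -0.17 without EMPA replicate 1 to 0.26 without EMPA replicate 2. Neutrophil markers, 6 tested and 2 higher at that level, summed to 17.1, 25.1 and 15 CPM against 72.4 and 23.6 CPM, led by S100a9 and highest in EMPA replicate 1, with a median of 1.46, or 0.28 without that library. Lymphocyte markers, 12 tested and 1 higher, summed to 134, 111 and 106 CPM against 179.6 and 95.2 CPM, led by Ptprc, with a median of 0.63, from 0.37 without EMPA replicate 1 to 0.96 without EMPA replicate 2. Nerve and Schwann cell markers, 10 tested and 4 higher, summed to 249.6, 151 and 263 CPM against 197 and 445 CPM, led by Pmp22 and highest in EMPA replicate 2, with a median of 0.95, or -0.27 without it.

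Of 8 mast cell markers 1, Kit, was lower at an unadjusted p under 0.05 (6.52% of all genes were higher and 7.74% lower) and 1 stayed at or under the floor in all 5 libraries, with sums of 51, 62.8 and 45.2 CPM in controls and 45 and 22.8 CPM under EMPA and a median of -0.84, or -0.59 with the gene at 0 under EMPA set to its bound. Platelet markers summed to 50.9, 22.9 and 40 CPM against 57.1 and 32.3 CPM (5 tested, led by Pf4, median 0.29), adipocyte markers to 5302, 6673 and 3286 CPM against 4611 and 3083 CPM (7 tested, led by Fabp4, median -0.26), mesothelial markers to 142, 196 and 110.5 CPM against 130.4 and 84.9 CPM (6 tested, led by Wt1, median -0.48) and skeletal muscle markers to 1248, 1334 and 1464 CPM against 1528 and 2530.0 CPM (8 tested, led by Acta1, median 0.38). No gene of these 4 lists had an unadjusted p under 0.05. Of 6 red cell markers tested none passed, 1 was higher at an unadjusted p under 0.05, and their summed level was 1538, 1836 and 1182 CPM in controls and 2320.1 and 447 CPM under EMPA, led by Hbb, highest in EMPA replicate 1 and lowest in EMPA replicate 2. Red cell markers had a median of 0.34. With single libraries left out, the medians ran from -1.84 without EMPA replicate 1 to -0.40 without EMPA replicate 2 for mast cells, from -0.53 without EMPA replicate 1 to 0.64 without control replicate 1 for platelets, from -0.37 without EMPA replicate 1 to 0.38 without control replicate 3 for adipocytes, from -0.94 without EMPA replicate 2 to 0.57 without control replicate 3 for mesothelium, from 0.01 without EMPA replicate 2 to 0.45 without control replicate 1 for skeletal muscle and from -1.35 without EMPA replicate 1 to 1.09 without EMPA replicate 2 for red cells. The part of any of these cell types in the results was not tested.

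Remaining lists had no gene past the threshold. Of 32 cell cycle genes 26 were lower under EMPA, 2 of them, Ccnd1 and Pcna, at an unadjusted p under 0.05 (6.52% of all genes were higher and 7.74% lower), with 0 higher and a median of -0.39. Ccnd1, a cyclin that opens the cell cycle, was at 225, 242 and 235 CPM in controls and 107 and 133 CPM under EMPA (adjusted p = 0.161 in edgeR). Of 28 antioxidant genes 1 was higher and 1 lower at an unadjusted p under 0.05 (median 0.20), and of 27 genes of the unfolded protein response 0 were higher and 3 lower (median -0.08, from -0.14 without control replicate 2 to 0.01 without control replicate 3). Of 25 protein kinase C and receptor genes that the study itself named from these samples, 3 were higher and 0 lower (median 0.19, from 0.10 without EMPA replicate 2 to 0.21 without control replicate 3), so that list is no independent evidence. Of 6 sex-linked genes 0 were higher and 0 lower at that level.

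Other tools called more genes in some of the lists. Of all genes tested in EMPA against control, DESeq2 called 83 higher and 120 lower, and limma voom 235 and 171. In EMPA against control, DESeq2 called 1 sarcomere gene higher and limma voom 5 higher and 1 lower. They called 1 and 2 genes of the fetal program higher and 1 each lower, and 2 TGF-beta and WNT genes each lower. Ion channel genes had 2 higher in each, ketone and PPAR-alpha targets 2 and 5 higher, genes of the major histocompatibility complex 6 and 5 higher and 7 and 6 lower, and atrial and conduction genes 1 each higher and 2 and 1 lower. Of smooth muscle markers DESeq2 called 1 higher and limma voom 0. As in edgeR, both called 1 ribosomal and 1 nitric oxide gene higher and 1 gene of the citric acid cycle list lower. For cytokines and chemokines they called 1 and 2 higher and 1 and 2 lower, for interferon genes 1 each lower, for matrix genes 1 each higher, for sodium and proton handling 1 each lower, for nerve markers 1 and 2 higher and for bone and cartilage markers 1 and 2 higher. Limma voom alone called 3 immediate early, 3 chaperone, 1 NF-kB, 1 antioxidant, 1 macrophage, 1 neutrophil and 1 adipocyte gene higher, 1 angiogenesis, 1 cardiomyocyte and 1 fibroblast gene lower, and 1 glycolysis gene each way. Neither tool called a gene of oxidative phosphorylation, branched-chain amino acid breakdown, calcium handling, the unfolded protein response, the cell cycle, the protein kinase C list, the sex-linked list, or the endothelial, lymphocyte, mast cell, red cell, platelet, mesothelial and skeletal muscle markers.

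**Figure D4:**
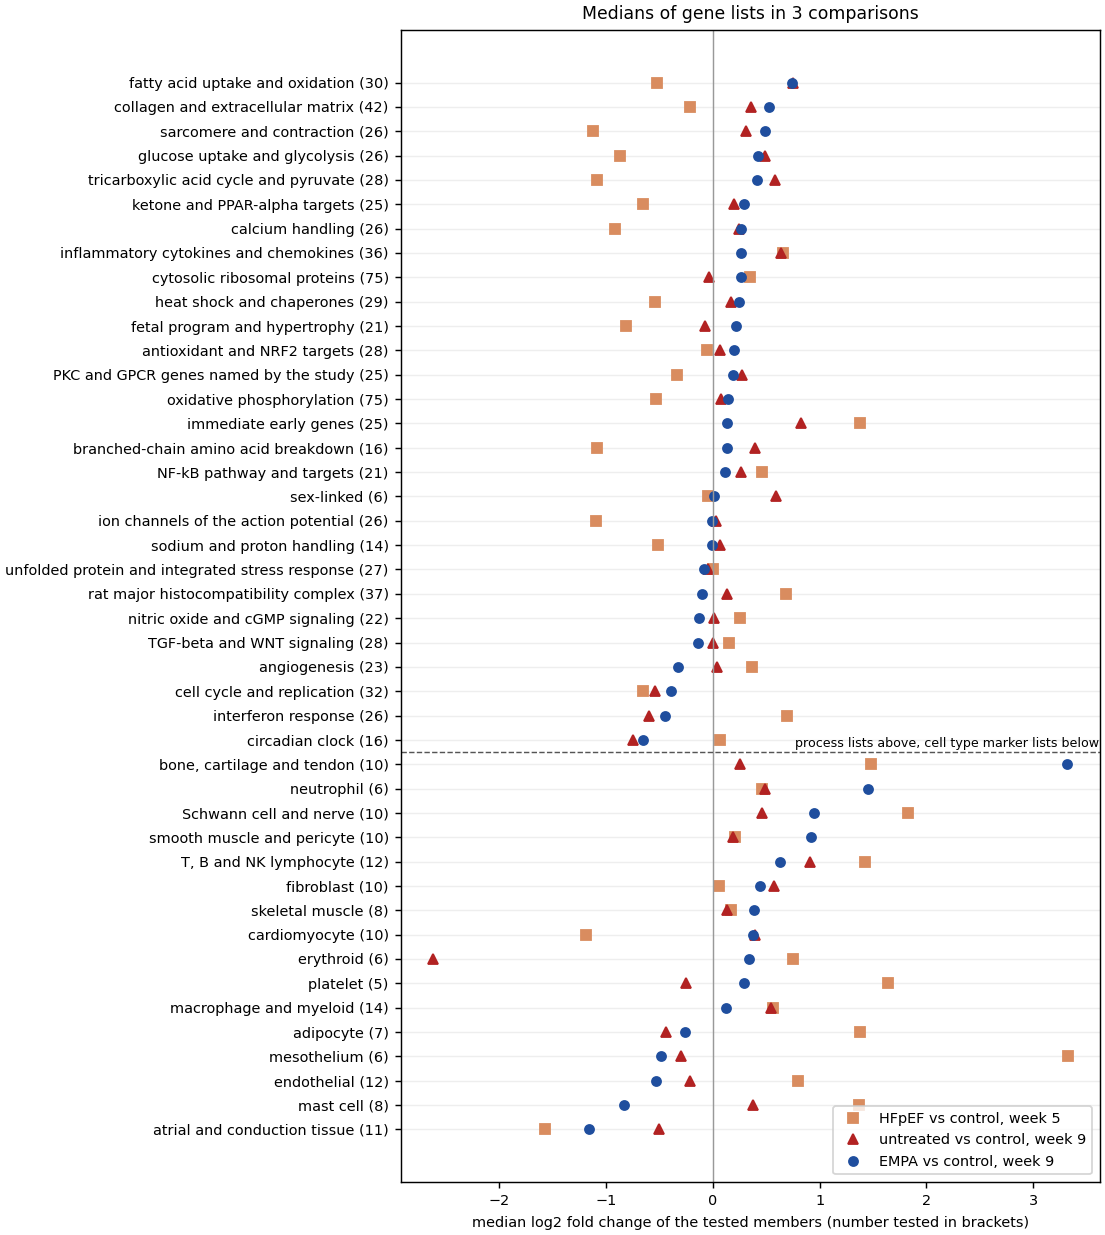
Median log2 fold change of each gene list in HFpEF against control at week 5 and in untreated and EMPA hearts against control at week 9, with the number of genes tested in brackets and process lists above marker lists. Fatty acid genes sit above 0 in both week 9 comparisons and below 0 at week 5, and clock genes sit below 0 at week 9 only.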

How the data were processed

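Total RNA of 19 hearts was sequenced, 1 library per sample. The deposited files hold counts per gene, which the authors made with Trim Galore, FastQC, HISAT2 on rn6 and HTSeq, with no versions or strand setting given. Of 17455 genes, 12388 passed edgeR's filter by group. All 19 libraries were fitted with 7 groups (R 4.3.3, edgeR 4.0.16, TMM factors, quasi-likelihood test, Benjamini-Hochberg adjustment), and a gene passed at an adjusted p under 0.05 and at least 1 up or down on the log2 scale. The common coefficient of variation was 0.257. Log2 CPM used a prior count of 2. Alternatives were RLE and upper-quartile factors, other filters, DESeq2 1.42.0, limma 3.58.1 voom, only the groups compared, a replicate block and 1 library left out. Python 3.11.15, pandas 2.3.3 and matplotlib 3.10.9 made summaries and figures, and the code was tested on simulated data.

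The members and gene lists were chosen with earlier results of these data known. Named genes are, by rule, the 12 largest rises and 12 largest falls with libraries that do not overlap and a mean of at least 1 CPM; up to 3 members of each list past an adjusted p of 0.05, or else its 2 most abundant; up to 10 genes changed alike at both weeks and 5 with the largest difference between weeks; sex-linked and RT1 genes with groups at 0 and above; and every gene of a comparison with 5 or fewer. Some genes that the rule names are not reported here. The 28 process lists and 16 marker lists were matched by symbol or a unique synonym, and 99.0% of tested genes matched RefSeq GRCr8, used for gene order and promoters. Coordinates of rn6 were not available. Distances use all tested genes, and no pair of the 171 library pairs is identical.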

Additional observations from a re-analysis of the deposited data

Results flagged for a closer look

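The difference from control changed between the weeks for many genes. A test of EMPA against control at week 9 minus HFpEF against control at week 5 (edgeR, adjusted p under 0.05 and a log2 difference of at least 1) called 1148 of 12388 genes. Week, control animals and EMPA differ together in this contrast and cannot be told apart.

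Of the 57 genes of EMPA against control, 50 also passed in this contrast. For those named in the results it was above 0 by these log2 amounts: 10.75 for Slc27a2, 5.44 for Pik3c2g, 3.13 for Ccl22, 2.69 for RT1-CE14, 2.87 for Arhgef16, 2.39 for RT1-T24-1, 7.04 for Hcn4, 1.70 for RT1-A2, 4.08 for Klhdc8a, 1.19 for Nfil3, 1.73 for Rpl30, 1.12 for Notch3, 1.36 for Ap1s3, 2.69 for Myocd, 2.10 for Ppfia4 and 5.84 for RT1-N2. It was below 0 by these: -2.81 for Angptl4, -15.32 for RT1-CE16, -8.33 for Syce1, -2.87 for Lrtm2, -4.29 for Krt12, -3.83 for Tlx1, -1.45 for Dcxr, -2.38 for Slc1a1, -1.69 for Creb5, -1.86 for LOC100361083, -2.54 for Pik3c2a, -1.33 for Tef, -2.24 for Bcl6, -2.99 for Chrdl1, -2.65 for Fgfr3, -2.96 for Id1, -1.98 for Lfng, -2.45 for Lpin3, -1.35 for Nrm, -2.01 for Plxna2, -2.04 for RT1-CE10, -2.89 for St6galnac3, -2.40 for Tap2 and -1.39 for Top2b. Each is listed because its own difference between the weeks passed the test. Values for Slc27a2, RT1-CE16, RT1-N2, Ccl22 and Syce1 rest on groups at or near 0 counts, so their size depends on the prior count and is no bound.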

How the results depend on the processing

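The 57 genes of EMPA against control numbered 67 with RLE factors, 52 with upper-quartile factors, 61 with no filter beyond 1 count, 49 with at least 10 counts in every library and 82 with no fold threshold, of which 57, 51, 55, 42 and 57 were among the 57. With only the 5 libraries 85 passed, but these hold 29 of the 57, and 11 of 29 calls among named genes were lost; the cause was not tested. DESeq2 called 203, which hold all 57, and limma voom 406, which hold 53 of them; the cause was not tested. With a replicate block the count was 31, for EMPA and control replicates whose pairing correlations were 0.05 and -0.25; the cause was not tested. Leaving out 1 library gave 8 to 47, of which 7 to 34 were among the 57, and fewer samples remain in those fits; where 1 EMPA library is left, it is assumed to vary like the other groups. Chosen after seeing the data, leaving out the genes between the RT1 genes gave 35, beside 45 of the 57 that lie outside that stretch. Leaving out both HFpEF libraries with 0 Eif2s3y counts, also chosen then, gave 83.

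Other counts moved as follows, and the cause was not tested. The 113 genes of untreated against control became 298 with DESeq2, 1037 with limma voom, 220 with no fold threshold, 62 with a replicate block and 7 to 413 with 1 library left out. The 5 genes of EMPA against untreated became 1 with at least 10 counts in every library, 51 with DESeq2, 24 with limma voom, 1 with a replicate block, 1 without the RT1 stretch and 4 to 15 with 1 library left out. The 1076 genes of HFpEF against control became 460 with only their own libraries, 2478 with no fold threshold and 730 to 1113 with 1 library left out. The 1148 genes of the difference between weeks became 1926 with limma voom and 252 to 1247 with 1 library left out.

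Among 103 named genes, 1164 values kept their call or its absence, 123 lost the call and 16 gained it. The sign changed in 59 values of 25 genes, none of which had passed, 54 times by less than the standard error of the gene, counted in the 1164, and 5 times by more. In those 5, with 1 library left out Ptprc ran from -0.73 to 0.49, Hba-a1 from -1.35 to 1.20 and Cd74 from -0.20 to 0.65, lowest without EMPA replicate 1 and highest without EMPA replicate 2. Hbb ran from -1.83 to 0.55 with the same libraries, and C1qtnf3 from -0.55 without EMPA replicate 2 to 4.44 without EMPA replicate 1; the cause was not tested. Of the list medians, 26 moved by more than the spread between replicates and 282 did not, and with RLE or upper-quartile factors only that of the sex-linked list, near 0, changed sign. With 2 EMPA libraries, genes near the floor of 3 counts carry little information.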

Other observations

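Genes with the largest difference between weeks include Gal, Cldn11 and C1qtnf3, which did not pass in EMPA against control at week 9. Gal, the neuropeptide galanin, was at 33.8, 0.615 and 51.8 CPM in controls and 2.40 and 2.43 CPM under EMPA, with control replicate 2 below both EMPA libraries (adjusted p = 0.341 in edgeR). Cldn11, a tight-junction protein, was at 0.790, 0.492 and 11.4 CPM and 0.133 and 0.972 CPM, with 1 high control (adjusted p = 0.414). C1qtnf3, a secreted relative of complement C1q, was at 0.790, 0.246 and 0.698 CPM and 0.400 and 13 CPM, high in EMPA replicate 2 alone (adjusted p = 0.421 in edgeR). The groups of each overlap.

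Ap1s3, of a clathrin adaptor, was at 8.35, 9.72 and 9.77 CPM in controls and 30.8 and 31.6 CPM under EMPA and rose by 1.75 ± 0.30 on the log2 scale (adjusted p = 0.0143 in edgeR), and Ppfia4, a liprin, was at 9.25, 9.35 and 11.6 CPM and 20.8 and 39.1 CPM and rose by 1.57 ± 0.22 (adjusted p = 0.00641). Plxna2, a semaphorin co-receptor, was at 205, 234 and 188 CPM and 104 and 86.1 CPM, with -1.13 ± 0.23 (adjusted p = 0.0396 in edgeR). These genes were chosen after their values were seen. The call for Ap1s3 was lost without control replicate 1 or 2, or EMPA replicate 1 or 2, where edgeR's adjusted p was 0.0798, 0.0689, 0.0684 and 0.119. The call for Ppfia4 was lost without EMPA replicate 2, where edgeR's adjusted p was 0.0991. The call for Plxna2 was lost without control replicate 1, 2 or 3, or EMPA replicate 1 or 2, where edgeR's adjusted p was 0.115, 0.128, 0.0535, 0.116 and 0.514.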
